A study of Mus musculus with 2 samples.

Results

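The 5p arms of the mouse miRNA hairpins miR-6896 to miR-7093 were examined in B16, a mouse melanoma line. They were chosen by name alone, as every probe named mmu-miR-N-5p with N in that range and an optional letter after N. This gave 200 of the 1900 miRNA probes on the array, each printed as 1 spot. No measured value entered this rule, but the number range itself was chosen with earlier results of these data known.

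B16 cells in 2 groups were compared, and each group was measured on 1 array. Both were grown in medium with 5% fetal bovine serum, held for 24 h, and given an siRNA with a lipid reagent. One group received Control-siRNA and the other Fam222B-siRNA, and total RNA was taken 48 h later. With 1 array per group (n = 1) no value has a replicate error, no test between the groups was possible, and treatment and array cannot be told apart. The array measures bulk RNA, so fewer cells that hold a miRNA and less of it per cell cannot be told apart either. These probes do not measure the Fam222B mRNA, so the knockdown itself was not checked here.

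Most mammalian miRNAs are cut from long primary transcripts by the nuclear enzyme Drosha and then by Dicer. Mirtrons bypass Drosha: the spliceosome releases a short intron, which is debranched, folds into a hairpin and goes straight to Dicer. In a tailed mirtron the hairpin shares only one end with the intron, and the tail at the other end is trimmed away. A mature miRNA finds its targets mainly through its seed, bases 2 to 8 from the 5′ end. The 5p product comes from the 5′ side of the hairpin and the 3p product from the other side.

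The 5 brightest members carried 40.1% of the net signal of all 200 members with Control-siRNA and 40.9% with Fam222B-siRNA. Their mature sequences are shown so that their base makeup can be set beside the G shares below. They are written 5′ to 3′ as RNA with the seed in capitals, and come from RefSeq on GRCm38.p6.
miR-6955-5p: aGGGCCUCaggacucaggagguga
miR-7005-5p: cCUGGGGAugggaggaccagca
miR-7059-5p: aCCGGGGAcugcggcuuucagu
miR-6968-5p: aGGGGGCGagggggcccugugg
miR-6988-5p: gGGGUGGAgagcugaggccca

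All 5 lie within a protein-coding gene and on its strand, by the same annotation. miR-6955-5p is at chr15:78891845-78891868 on the plus strand, inside Gga1, which encodes an adaptor for vesicle sorting at the Golgi. miR-7005-5p is at chr2:180179797-180179818 on the minus strand, inside Lama5, a laminin chain of basement membranes. miR-7059-5p is at chr7:126579506-126579527 on the minus strand, inside Cln3, which encodes a lysosomal membrane protein. miR-6968-5p is at chr17:26935472-26935493 on the plus strand, inside Phf1, a Polycomb-associated protein. miR-6988-5p is at chr19:6051338-6051358 on the plus strand, inside Syvn1, a ubiquitin ligase of the endoplasmic reticulum. Exon and intron bounds were not used here.

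A RefSeq sequence was matched by name for 176 of the 200 members, on 19 chromosomes. All 176 lay within the bounds of a protein-coding gene, against 739 of 1262 matched miRNAs (58.6%) outside the number range. For 155 of the 176 the gene ran on the same strand, and for the other 21 no strand was used here. The array's files name no mirtrons, so the hairpin ends were read instead, on the RNA strand only. Of the 171 member hairpins with a sequence, 158 (92.4%) ended in AG, the letters that close nearly all introns. Among 757 hairpins outside the number range 68 (8.98%) did. GU, the letters that open nearly all introns, stood at the start of 26 member hairpins (15.2%) and of 6.08% of the others. Both ends were present in 20 member hairpins. Most member hairpins thus held the letters of an intron at the 3′ end alone, which describes these sequences and does not show how any of them is made.

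The mature 5p sequences were rich in G. The median G share was 43.7%, with a range from 13.0% to 66.7%, against 26.1% in the matched miRNAs outside the number range. The median C share was 13.6%, against 22.7%. A run of GGGG occurred in 67 members (38.1%), against 113 of the 1262 others (8.95%), and GGG stood within the seed of 95 members (54.0%), against 11.0% of the others. miR-6968-5p has 14 G among its 22 bases, and miR-6988-5p is 52.4% G. The 3 brightest members were not so rich in G. miR-6955-5p, miR-7005-5p and miR-7059-5p had 41.7%, 45.5% and 36.4%. Length was alike: the median was 22 bases in both sets, and members ran from 18 to 26 bases.

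Detection followed the noise of spots that carry no probe. The limit was 2 SD above the mean of the BLANK spots, of which the top and bottom 5% were left out. The thresholds were 72.6 and 72.5 units for Control-siRNA and Fam222B-siRNA. By this rule 163 of the 200 members (81.5%, exact 95% interval 75.4% to 86.6%, counting error only) were detected with Control-siRNA. In Fam222B-siRNA cells 136 were (68%, 61.1% to 74.4%). Of the 1700 other miRNA probes 62.1% and 48.4% were detected. The 3p arms of the same 200 hairpins lay between, at 73.5% and 57%. Members were therefore detected more often than either set on each array, and the fall from the first array to the second was of like size in members and other probes. The size of that fall depended on the background spots. With No Probe spots in place of BLANK spots it was smaller, from 81.5% to 78.0% of members and from 66.3% to 62.8% of all probes. No test was made of these differences. 132 members were detected on both arrays (66.0%, against 45.8% of the others), 31 with Control-siRNA alone, 4 with Fam222B-siRNA alone and 33 on neither.

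Most members gave weak signal. Net signal is the spot minus the mean of the array's BLANK spots, which was 70.3 and 69.9 units. Its median over all 200 members was 7.62 units with Control-siRNA and 6.39 with Fam222B-siRNA, against 3.51 and 2.39 for the other probes. 9 members reached 100 units with Control-siRNA and 8 did with Fam222B-siRNA, while 78 and 59 of those detected lay under 10 units. At the top end members did not stand out, since 5.18% of the other probes reached 100 units on each array, against 4.5% and 4% of the members. Summed over all members, net signal was 3.53% of that of all miRNA probes with Control-siRNA and 3.17% with Fam222B-siRNA. A level compared between probes also carries how well each probe binds, so the order of members is that of their signals.

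miR-6955-5p was the brightest, at 663 net units with Control-siRNA and 577 with Fam222B-siRNA, ranks 17 and 25 among the 1900 miRNA probes. The spot SD, built from control probes printed 8 times on each array and from the BLANK spots, was 31.0 and 27.6 units, so the array values lay apart by more than either SD. miR-7005-5p gave 493 and 466 units, at rank 27 on both arrays, a difference close to its spot SDs of 23.1 and 22.3. Its spot lies in one of the 4 blocks described further on. miR-7059-5p followed at 413 and 388 units, with spot SDs of 19.3 and 18.6. miR-6968-5p was at 337 and 271 units, with spot SDs of 15.8 and 13.0. This was the widest gap between the arrays, in units relative to signal, among the 5 brightest. miR-6988-5p had 228 and 239 units, and was the only one of the 5 that was brighter with Fam222B-siRNA. Within this order, neighbours such as miR-7005-5p and miR-7059-5p were separated by more than 2 spot SD of either, and the order of these 5 was the same on both arrays.

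**Figure D1:**
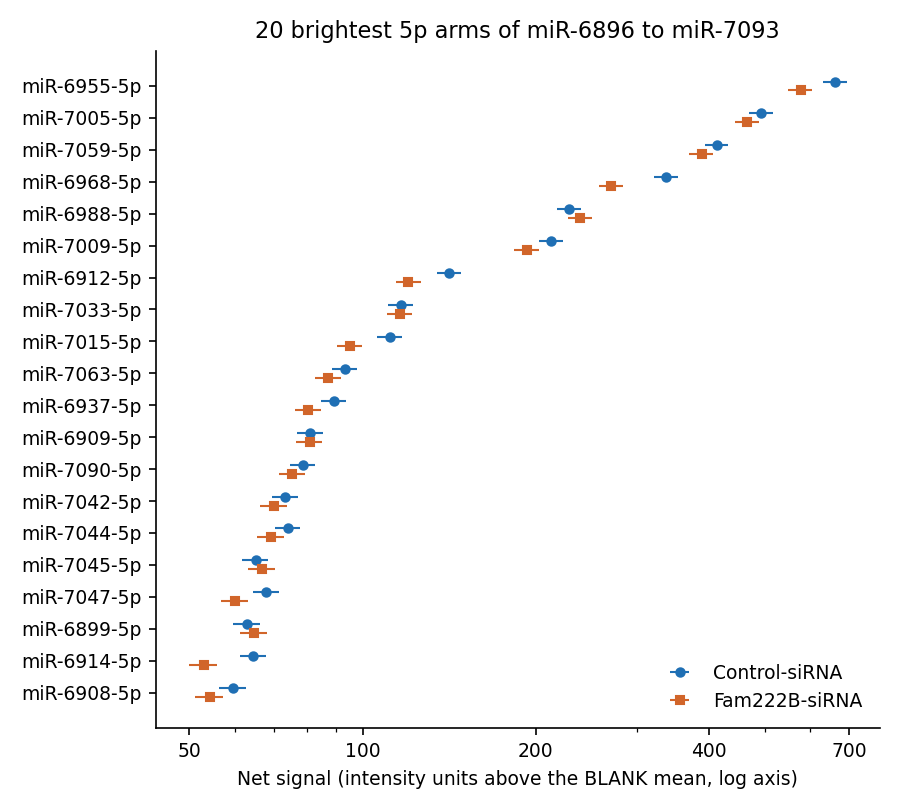
Net signal (horizontal log axis, intensity units above the BLANK mean) of the 20 brightest 5p arms on the Control-siRNA array (circles) and the Fam222B-siRNA array (squares), with bars of 1 spot SD that cover spots within an array only. miR-6955-5p leads at 663 and 577 units, and miR-6988-5p is the only one of the 5 brightest with the higher value on the Fam222B-siRNA array.

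The next members fell off steeply. miR-7009-5p, within Anxa5, gave 213 and 193 units, and miR-6912-5p, within Scamp4, gave 141 and 120. miR-7033-5p was nearly equal on the arrays, at 116 net units on each, and miR-7015-5p was at 111 and 94.9. For the 12 brightest members with a sequence, the longest run of bases shared with any other matched miRNA of the array was 13, between miR-7005-5p and miR-23a-5p and between miR-6937-5p and miR-7047-5p. miR-23a-5p itself gave a mean of 2.92 net units. miR-7015-5p shared 11 bases with miR-1902, whose mean was 2438 net units. The part of cross-binding in any of these signals was not tested.

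By class median, members richer in G gave more signal, though the brightest member, miR-6955-5p, had 41.7% G. Members under 30% G had a median of 0.593 net units with Control-siRNA and -0.022 with Fam222B-siRNA, and 0 of 8 were detected on both arrays. From 30% to 40% G the medians were 3.77 and 1.69 units and 19 of 47 members (40.4%) were detected on both. From 40% to 50% G they were 9.32 and 6.73 units, with 48 of 66 (72.7%) detected. At 50% G or more they were 13.2 and 10.4 units, with 47 of 55 (85.5%) detected. Across the 176 members Spearman's rho between G share and mean net signal was 0.49, and it was 0.48 on each array taken alone. These members share both arrays and one labelling each, and a base share also bears on how strongly a probe binds, so rho is a description. With C share rho was 0.13, with A share -0.32 and with U share -0.26. Among the 1262 matched miRNAs outside the number range rho with G share was 0.19. Those of at least 50% G there were detected on both arrays in 85.5% of 62 cases, the same share as the members of that class. Their medians were higher, at 31.2 and 27.9 net units against the members' 13.2 and 10.4. From 40% to 50% G 72.7% of 132 were detected on both, from 30% to 40% 44.0% of 284, and under 30% 37.2% of 784. In the 2 middle classes the members' shares were thus equal or lower. Among the 3p arms of the same numbers rho was -0.14 with G share and 0.56 with C share.

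**Figure D2:**
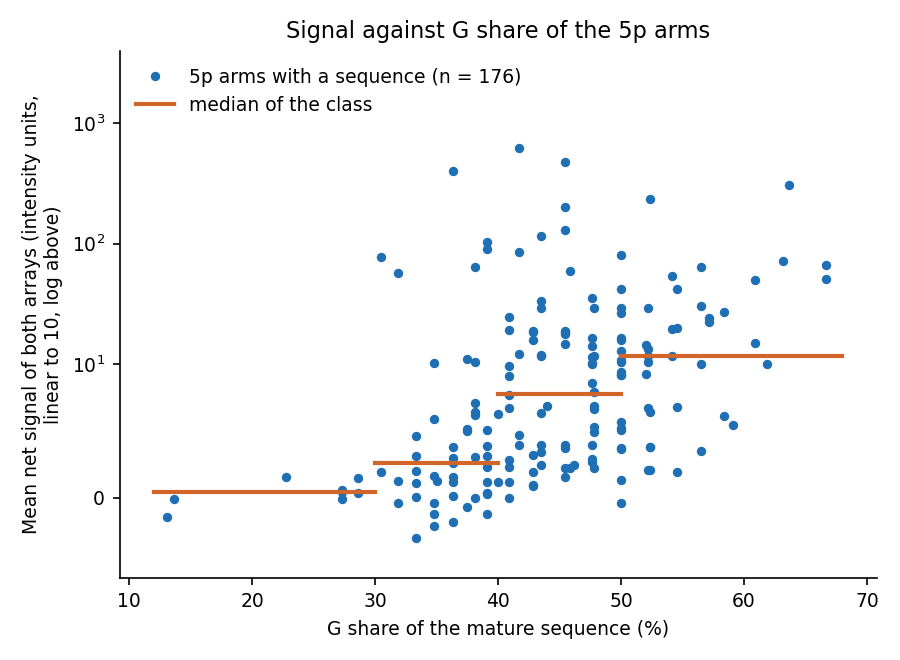
Mean net signal of both arrays (vertical axis, intensity units, linear to 10 and logarithmic above) against the G share of the mature sequence (horizontal axis, %) for the 176 5p arms with a RefSeq sequence, with the median of each G class as a bar. None of the 8 members under 30% G was detected on both arrays, and 47 of 55 at 50% or more were.

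Few members share a seed. The 176 sequences held 155 different seeds, 18 of which occurred in more than 1 member, with 3 families of 3 members and none larger. The brightest member of each of these 3 families is shown to let their seeds be compared, again in capitals.
miR-7030-5p: uGGGGAGGuggcugugcuaguc
miR-7008-5p: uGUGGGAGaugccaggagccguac
miR-7028-5p: uGGGCUGAggcuugggucaggag
miR-7030-5p, of the GGGGAGG family and within Rab35, gave 18.2 net units with Control-siRNA and 14.9 with Fam222B-siRNA. Its seed partners miR-7076-5p, at 10.5 and 12.2 units, and miR-7075-5p, at 10.2 and 10.03, lay lower. The GUGGGAG family was even with Control-siRNA but not with Fam222B-siRNA, with miR-7008-5p at 11.4 and 12.6 units, miR-6993-5p at 11.2 and 11.97, and miR-6922-5p at 12.3 and 7.69. miR-7028-5p, of the GGGCUGA family, gave 14.1 and 9.21 units, miR-6911-5p 9.47 and 4.29, and miR-7079-5p 3.48 and 4.44. The pair on seed CUGGGGA lay far apart, since miR-7005-5p gave 493 and 466 units where miR-6975-5p gave 13.6 and 13.1. A shared seed thus went with no shared level in that pair.

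The arms of one hairpin were compared for all 200 numbers, since the array also carries each 3p partner. The 5p arm was the brighter on both arrays for 119 hairpins (59.5%), and the 3p arm for 59. Both arms were detected on both arrays for 78 hairpins, the 5p arm alone for 54, the 3p arm alone for 30 and neither for 38. For the brightest members the gap was wide: miR-6955-3p gave 5.92 and 3.498 net units beside 663 and 577 for the 5p arm. miR-7005-3p gave 13.2 and 7.06 units, miR-7059-3p 2.92 and 2.19, miR-6968-3p 6.30 and 6.81, and miR-6988-3p 0.896 and 0.459. The largest gap the other way was at miR-7000, whose 3p arm gave 644 and 538 units while miR-7000-5p, at 1.68 and 0.580, was not detected. Spearman's rho between the arms over the 200 hairpins was 0.32 with Control-siRNA and 0.27 with Fam222B-siRNA. It is a description over pairs printed on the same arrays by probes of different base makeup.

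**Figure D3:**
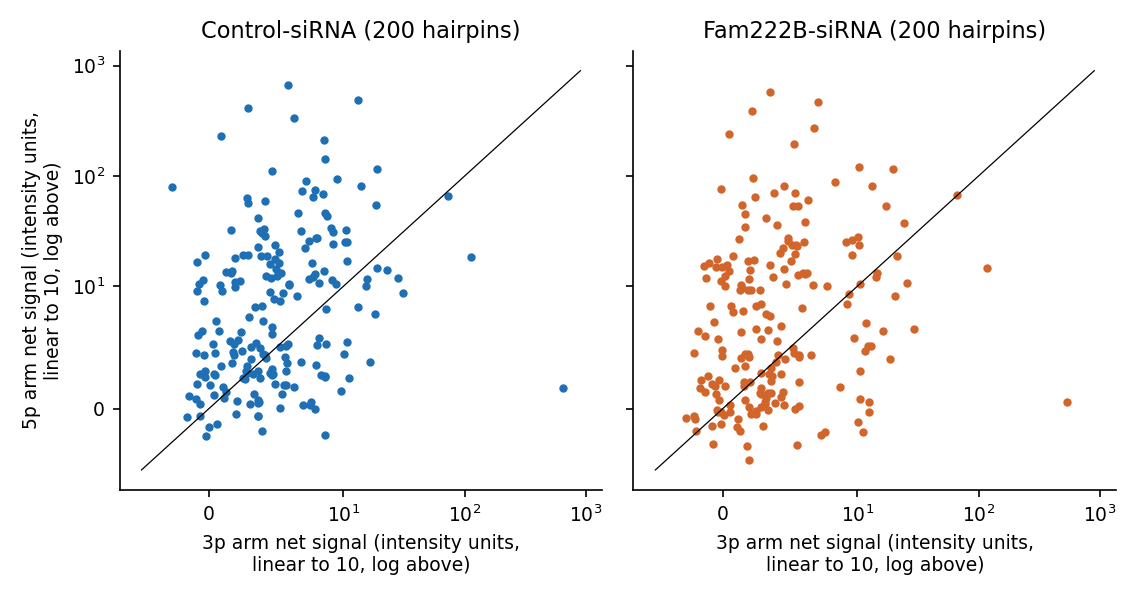
Net signal of the 5p arm (vertical) against that of the 3p arm (horizontal) for the 200 hairpins on the Control-siRNA array (left) and the Fam222B-siRNA array (right), in intensity units, linear to 10 and logarithmic above. The line marks equal signal. 119 hairpins lie above it on both arrays and 59 below it on both, and the point at far right is miR-7000, with 644 and 538 units for its 3p arm.

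The arrays were then compared, to ask how the 5p arms differed after the siRNA against Fam222B. On net signal as measured, the members were slightly dimmer with Fam222B-siRNA. Their summed net signal was 5320.2 units with Control-siRNA and 4744 with Fam222B-siRNA, a ratio of 0.892 with a spot SD of 0.0137. All other probes summed to 145237 and 144883 units, a ratio of 0.998 with a spot SD of 0.0269. That sum is dominated by a few very bright probes. The 3p arms of the same hairpins summed to 1860.5 and 1586 units, a ratio of 0.852 with a spot SD of 0.0259. Within that sum miR-7000-3p alone gave 644 and 538 units. These spot SDs leave out any error of the background level, which weighs on sums of mostly dim probes. No Probe spots averaged 70.3 and 69.2 units where BLANK spots averaged 70.3 and 69.9. The order of the 5p and 3p ratios is therefore not settled. Probe by probe, 91 of the 132 members detected on both arrays (68.9%) were dimmer with Fam222B-siRNA, with a median ratio of 0.905. Of all 910 probes detected on both arrays 64.8% were, with a median ratio of 0.921, and the 108 3p arms had a median of 0.880, so the shift was not particular to the 5p arms. Over the members, log2 net signals on the arrays correlated with Pearson's r = 0.962 (n = 132, across miRNAs that share both arrays).

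**Figure D4:**
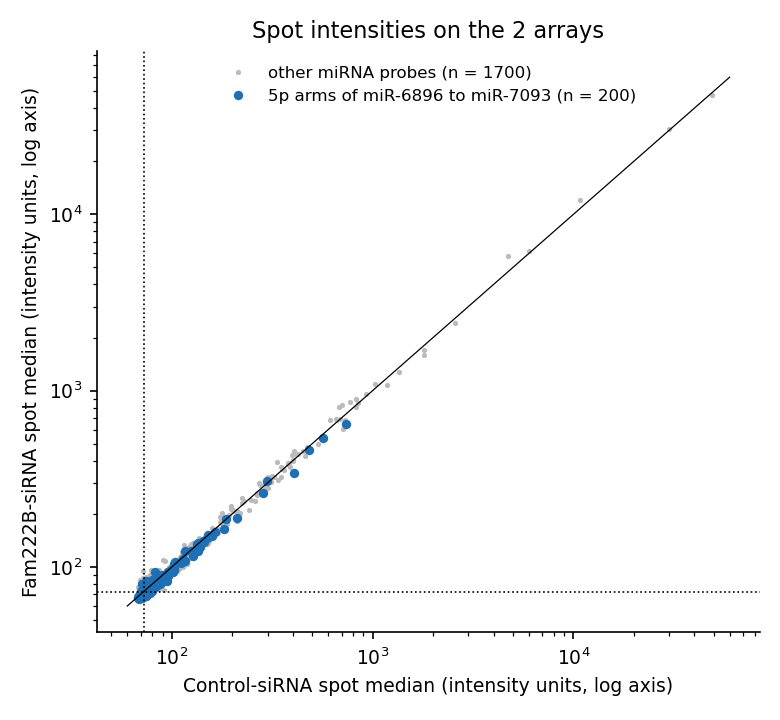
Spot medians (intensity units, log axes, no background subtracted) on the Fam222B-siRNA array against the Control-siRNA array for the 200 5p arms and the 1700 other miRNA probes. The solid line marks equal intensity and the dotted lines the detection thresholds of 72.6 and 72.5 units. The members end at 733 units on the Control-siRNA array, far below the brightest other probes.

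The gap between members and other probes was widest at high signal. The members' median ratio was alike across brightness classes, while that of the other probes was higher in brighter classes. By mean net signal, in classes from 100 units or more, 20 to 100 and 10 to 20 to under 10, members had median ratios of 0.907, 0.907, 0.893 and 0.901. The other probes had 1.02, 0.937, 0.927 and 0.843. Of 40 members that reached 20 net units on each array, 34 (85.0%) were dimmer with Fam222B-siRNA, with a median ratio of 0.909 and a range from 0.740 to 1.15. Of 237 other probes of that brightness 145 (61.2%) were dimmer, with a median ratio of 0.965. At 100 net units or more on both arrays, 7 of 8 members were dimmer, with a median ratio of 0.924, against 36 of 88 other probes with a median ratio of 1.02. After scaling the blank-subtracted values to equal medians the 8 members had a median log2 difference of 0.0075 and the 88 others one of 0.14. On that scale, therefore, these members did not lie below 0 but below other bright probes, and no test of that gap was made. Where the mean of both arrays was under 10 net units the order turned, with 58.0% of 50 members dimmer and 66.1% of 401 other probes. Counts of such dim probes also rest on the background taken. With Fam222B-siRNA, No Probe spots averaged 69.2 units and BLANK spots 69.9.

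The main scale for single members was log2 of Fam222B-siRNA over Control-siRNA after normexp background correction with an offset of 50 units and quantile normalization, which damps the differences of dim probes. On it the 132 members had a median of -0.010, with a range from -0.29 to 0.25, and all 910 probes had a median of -0.00013. 57 members lay above 0 and 71 below, or 43.2% and 53.8%, where 46.3% and 50.1% of the 910 did. 0 members reached 2-fold in either direction, as did 0% of the 910 probes. With the BLANK mean subtracted, no offset and equal medians, 61 members lay above 0 and 71 below, or 46.2% and 53.8%, where 50.4% and 49.6% of the 910 did. On that scale 3 members reached 2-fold upward and 4 downward, or 2.27% and 3.03%, against 2.97% and 2.42% of the 910. The share of members at 2-fold was thus close to that of all probes. All 7 gave under 25 net units on each array, where an error of a few units makes a large ratio.

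Measured by its own spot SD, the main-scale difference exceeded 2 SD upward in 5 members and downward in 10, or 3.79% and 7.58%. Of the 910 probes 5.71% did so upward and 4.29% downward. On the scale with equal medians and no offset the counts were 6 and 2 members, against 7.91% and 1.54% of all probes, so the balance of lower over higher members did not hold on that scale. The spot SD covers spots within an array only, and spot noise alone puts some probes past 2 SD. These are therefore not counts of changed miRNAs.

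Among the lower members, miR-6968-5p had the lowest difference, -0.29 (spot SD 0.081), with 337 net units with Control-siRNA and 271 with Fam222B-siRNA. miR-6955-5p was at -0.24 (spot SD 0.086), and miR-6912-5p at -0.18 (0.071). With equal medians and no offset the same 3 were at -0.19, -0.078 and -0.11, each within 2 spot SD. The direction of miR-6955-5p and miR-6968-5p turned, to 0.48 and 0.21, with the files' own BG_Median column as background, and that of miR-6912-5p turned, to 0.0020, when the arrays were scaled to the repeated control probes. They were also dimmer in plain net signal, at 0.803, 0.870 and 0.851 times the control value. miR-6916-5p, within Esyt1, gave 24.3 net units against 13.2, a difference of -0.20 (spot SD 0.052) on the main scale and -0.75 (0.22) with equal medians. It was past 2 spot SD on both scales, as was miR-7023-5p, at 17.1 and 10.2 units (-0.13 and -0.62). Scaled to the control probes, miR-7023-5p turned to 0.025. The sequences of 3 of these, not shown above, share no seed.
miR-6912-5p: uACAGGGAgggugcucaggcag
miR-6916-5p: cAGGAGGAuggagaugaguca
miR-6944-5p: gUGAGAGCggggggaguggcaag
miR-6944-5p, the third of them, lies within Dbn1, the gene of an actin-binding protein, and differed in the other direction. It gave 46.4 net units with Control-siRNA and 53.2 with Fam222B-siRNA, higher by 0.14 (spot SD 0.056) on the main scale and by 0.32 (0.12) with equal medians.

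The highest difference was that of miR-6982-5p, at 12.2 net units with Control-siRNA and 23.8 with Fam222B-siRNA (0.25, spot SD 0.052). miR-6998-5p, within Fubp3, gave 4.38 and 13.8 units (0.24, spot SD 0.054), and miR-7068-5p, within Cherp, gave 2.88 and 9.87 (0.19, spot SD 0.056). miR-7074-5p, within Slc12a4, gave 9.56 and 14.1 units (0.12, spot SD 0.053). All 4 were also past 2 spot SD with equal medians. At or above the members' median signal, miR-7053-5p, miR-6917-5p and miR-6959-5p were also higher, by 0.10, 0.093 and 0.079. Each was within 2 spot SD on the main scale. Apart from miR-6944-5p, then, the higher members past 2 spot SD were dim ones. The sequences of those 2 with more than 3-fold the net signal on the second array are shown for their unlike seeds.
miR-6998-5p: cUGGGCAGagggcaaagugacu
miR-7068-5p: gUGAGGCUcaguauggggugg

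Some of the higher members were printed close together. In blocks 17, 18, 25 and 26 of the array's 32, which an earlier look at these data had singled out for dim spots that gained signal, 15 members detected on both arrays had a median difference of 0.063, with 12 above 0. In the other blocks 117 members had a median of -0.020, with 45 above 0 and 69 below. Over all miRNA probes the split was similar: 123 inside had a median of 0.056, with 81 above 0, and 787 outside had one of -0.0055, with 340 above 0 and 417 below. Since gains of dim spots picked out these blocks, gains of dim members there restate that choice. miR-6982-5p, miR-6998-5p and miR-7068-5p were all printed in the 4 blocks, and miR-6944-5p and miR-7074-5p were not. The 112 BLANK spots in these blocks, which hold no probe, gained a median of 0.656 units from one array to the other, and the 784 elsewhere changed by -0.036. The 10 lower members past 2 spot SD were all printed outside the 4 blocks, where 117 of the 132 members lay. Of all probes 36 of the 39 past 2 spot SD downward lay there too. The part of position in these results was not tested.

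**Figure D5:**
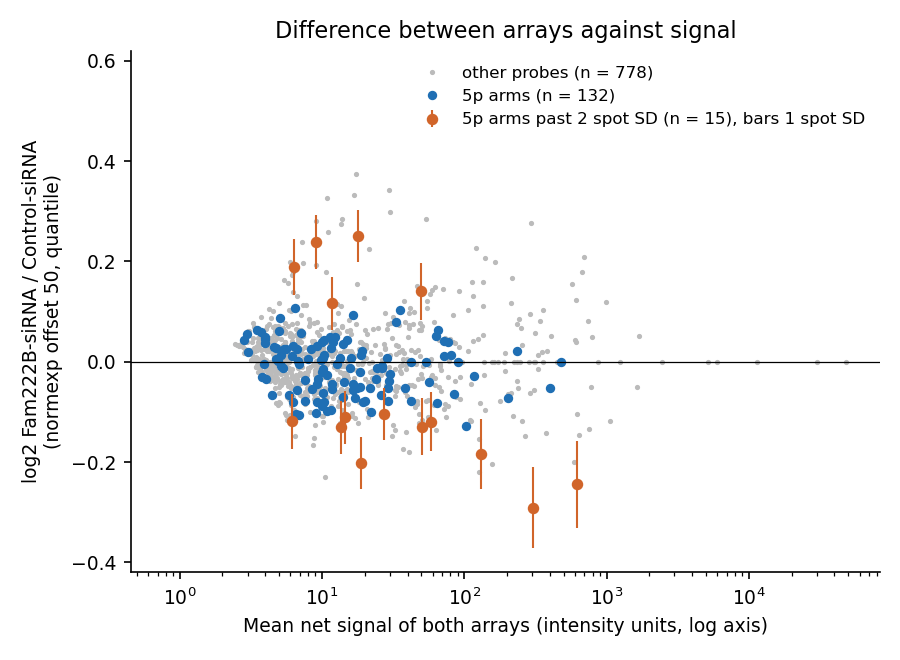
Log2 difference between the arrays (vertical axis, Fam222B-siRNA over Control-siRNA, normexp with offset 50 and quantile normalization) against mean net signal (horizontal log axis, intensity units) for the 132 5p arms and 778 other probes detected on both arrays. The 15 members past 2 spot SD carry bars of 1 spot SD: 3 of the 10 lower ones lie above 100 units, and all 5 higher ones lie under 50.

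Members detected on 1 array were dim, all under 10 net units. The brightest of the 31 seen with Control-siRNA alone were miR-7006-5p at 7.16 net units, miR-6918-5p at 5.56 and miR-7013-5p at 5.46. With spots taken as exact, these stood at least 1.06-fold, 1.03-fold and 1.03-fold above the lowest detected level of the other array, on the main scale. In log2 these bounds were 0.087, 0.048 and 0.047, each within 2 spot SD (1 spot SD was 0.057). Of the 4 seen with Fam222B-siRNA alone, miR-6943-5p gave 9.71 units, miR-7084-5p 5.14 and miR-7002-5p 3.81. Taken in the same way, they were at least 1.15-fold, 1.07-fold and 1.05-fold higher there. The log2 bounds were 0.20, 0.098 and 0.068, beside spot SDs of 0.057, 0.058 and 0.058, so only that of miR-6943-5p was past 2 spot SD. miR-6943-5p, miR-7084-5p and miR-7013-5p were printed in the 4 blocks. Among all 1900 probes the split was as uneven, with 309 seen with Control-siRNA alone and 48 with Fam222B-siRNA alone.

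The cells gave the signal of their lineage on both arrays. miR-211-5p, a melanocyte miRNA, gave 264 net units with Control-siRNA and 326 with Fam222B-siRNA, and the 3 melanocyte markers summed to 383 and 426. The other 2 were lower on the second array, miR-211-3p at 83.3 and 70.4 units and miR-204-5p at 36.3 and 30.2. Markers of liver, muscle, red cells, leukocytes, neurons and epithelium were at 13.5 net units or below with Control-siRNA and at 12.2 or below with Fam222B-siRNA. The highest of these 17 was miR-451a. By the 2 SD limit, 3 of 4 muscle, 2 of 2 red cell and 3 of 4 leukocyte markers were detected with Control-siRNA. So were 1 of 1 neuron and 5 of 5 epithelium markers, and 0 of 1 for liver. With Fam222B-siRNA 1 muscle, 1 red cell and 1 epithelium marker were. Detection by this limit thus means only a spot above it, for members too.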

How the data were processed

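Each group's RNA carried Cy5 on a 1-colour Toray 3D-Gene miRNA array, per the labels' protocols. Per the file headers, the deposited values are spot medians of intensity at 635 nm, not background subtracted, for 3200 spots. The authors' deposited table lists processed intensity values for 1220 and 961 probes. Set against the scanner values, each column is linear in the spot median (slopes 3.40 and 3.69) and not centred on 0 (column medians 25.0 and 34.6). Between the columns the median log2 difference of all probes was 0, so that table shows no overall shift between the arrays. How its scaling factors were chosen is not given in the sources used here.

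The spot medians were corrected by normexp (limma 3.58.1 under R 4.3.3, offset 50), without the files' BG_Median column, and miRNA probes were quantile normalized. That column followed the spot: rho was 0.79 over 97 probes of at least 100 net units and 0.90 over 96. Spots flagged NG were left out (1 miRNA per array, 0 members). Spot SDs combine the CV of 5 control probes printed 8 times (4.67% and 4.78%) with the SD of 896 BLANK spots (1.54 and 1.66 units). The number of arrays limits the precision.

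The members follow from names alone, but this number range and the lists were chosen with earlier results of these data known. Named members are the 5 brightest and the 5 highest and 5 lowest differences among those detected on both arrays. The same was done among the 66 at or above their median signal (11.9 net units). To these come the 3 brightest on each array alone, the brightest of each shared seed and the markers miR-6968-5p and miR-6955-5p. Not all of those taken for a shared seed are described above. Members named for seeds, neighbours, partners or G share beside these were named after their values were seen. The steps were run on simulated arrays, both with the noise of the Control-siRNA array and with changes only in probes above 10 net units. No effect of blocks was simulated, so that run does not bear on dimmer members or on position. Alternatives were other detection thresholds, backgrounds, offsets and scalings, and leaving out 4 blocks. 12 probes naming several miRNAs hold no member.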

Additional observations from a re-analysis of the deposited data

How the results depend on the processing

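No paired analysis was possible because each group has 1 array, and for the same reason no array could be left out in turn. Detection shares moved with the threshold: at 5 SD 55.0% of members were detected with Control-siRNA and 48.5% with Fam222B-siRNA (37.6% and 31.4% of all probes). Without trimming, the share with Control-siRNA was 72.0% (55.6% of all probes). With No Probe spots as background that with Fam222B-siRNA was 78.0% (62.8%), beside 81.5% (66.3%) with Control-siRNA. The members' share was above that of all probes in all 5 detection alternatives on both arrays. Their share of summed signal was 4.99% and 4.86% with the BG_Median column, and 3.24% with Fam222B-siRNA with No Probe spots. Their median difference was 0.14 when scaled to the repeated control probes, where that of all probes was 0.15. It was positive but small with equal 75th percentiles (0.010, all probes 0.020) and with the BG_Median column (0.0035), and negative in the other 6 alternatives. At 2-fold, blank subtraction with equal medians and the authors' deposited table each gave 3 higher and 4 lower members, and the other alternatives gave 0. Of all probes, 27 were higher and 22 lower with blank subtraction and 26 and 22 in the deposited table. With the BG_Median column 5 and 14 of all probes were. Past 2 spot SD, 82 members were higher and 0 lower when scaled to the control probes (656 and 0 of all probes). With the BG_Median column 24 members were higher and 14 lower (115 and 87 of all probes). Higher members numbered 3 with detection at 5 SD (35 of all probes), 2 at or above the median signal (31) and 2 without the 4 blocks (17), beside 9, 9 and 10 lower ones (31, 28 and 36). Lower members numbered 2 with blank subtraction (14 of all probes) and 3 with equal 75th percentiles (19). Of 24 named members detected on both arrays, 7 turned sign with the BG_Median column, 9 when scaled to the control probes, 2 with blank subtraction and 2 in the authors' deposited table. Among those past 2 spot SD these were miR-6955-5p (0.48) and miR-6968-5p (0.21) with the BG_Median column, and miR-6912-5p (0.0020) and miR-7023-5p (0.025) with control-probe scaling. The causes were not tested, apart from the fewer members left by the stricter filters. The spot SDs near the detection threshold are about as large as the net signals there, which limits the dim members.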

Other observations

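Mirtrons named outside the number range gave a similar picture of weak signal. All 9 probes of a list of such arms (miR-702, miR-877, miR-1224, miR-1981 and miR-3102) were detected with Control-siRNA and 7 with Fam222B-siRNA. miR-3102-5p was the brightest, at 172 net units with Control-siRNA and 141 with Fam222B-siRNA, and miR-1224-5p followed at 28.2 and 27.2. The other 7 gave under 10 net units on each array.

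Of the 176 members with a sequence, 38 share their seed with a miRNA on the array that is not among them. miR-7016-5p and miR-6967-5p have the seed of miR-149-3p, AGGGAGG. They gave 25.1 and 8.99 net units with Control-siRNA and 19.1 and 3.29 with Fam222B-siRNA, where miR-149-3p gave 240.5 and 234. RefSeq places miR-6967-5p at 2 loci, so its signal cannot be given to one of them.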
